A study of Mus musculus with 20 samples.

Results

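Gene expression in the sensory epithelium of the cochlea was set against that in the superior olivary complex (SOC) at embryonic day 16 (E16), to describe what set the peripheral organ of hearing and the first binaural relay of the auditory brainstem apart before birth. A gene was included when it had at least 1 read count in an E16 cochlea library and at least 1 in an E16 SOC library, which held for 16366 of the 22734 genes of the count table (72%). Another 5406 genes had counts at E16 only in the cochlea, 837 only in the SOC and 125 in neither. The cochlea group comprised 3 libraries from untreated wild-type C57BL/6JOlaHsd mice, each made from the pooled sensory epithelia of several inner ears. The SOC group comprised 4 libraries from untreated wild-type C57Bl6/J mice, each made from the region of several embryos, which had been cut on a cryostat from heads frozen whole. Both sexes were used for both organs. The organs were collected in different laboratories and their libraries made with different ribosomal RNA depletion and stranded library kits, so that organ, substrain, laboratory and kit cannot be told apart in any difference below. For context, 3 cochlea and 4 SOC libraries from newborn mice (P0) of the same substrains were used, for which the SOC was taken from brains already removed from the skull.

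The cochlear sensory epithelium arises from the otic placode, an ectodermal thickening beside the hindbrain, and its prosensory cells leave the cell cycle before they become hair cells, which convert sound into electrical signals, and supporting cells, which secrete the tectorial membrane. The SOC arises from the hindbrain itself, from neural progenitors of the rhombomeres that carry a Hox code, and its excitatory and inhibitory neurons compare the inputs of both ears. Each organ therefore has textbook markers that the other should lack, and the head around the embryonic SOC (muscle, cartilage, bone, skin and the otic capsule) has markers that neither should have in quantity.

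The starts of 6 genes are shown first, because the results turn on what these genes mark: 2 tectorial membrane and otic matrix genes (Tecta, Otog) and 1 epithelial gene (Epcam) that were higher in the cochlea, and 3 sarcomere genes (Acta1, Myh3, Myh8) that were higher in the SOC libraries. Each sequence runs 5′ to 3′ on the strand of the gene, from 250 bases before to 50 bases after the RefSeq start, on GRCm38.p6 (mm10). Capitals mark the motifs TATAAA (the TATA box), CAGCTG (an E-box of the kind bound by muscle basic helix-loop-helix factors) and GGGCGG (the GC box), searched on both strands.
Tecta, chr9:42399898-42400197, minus strand: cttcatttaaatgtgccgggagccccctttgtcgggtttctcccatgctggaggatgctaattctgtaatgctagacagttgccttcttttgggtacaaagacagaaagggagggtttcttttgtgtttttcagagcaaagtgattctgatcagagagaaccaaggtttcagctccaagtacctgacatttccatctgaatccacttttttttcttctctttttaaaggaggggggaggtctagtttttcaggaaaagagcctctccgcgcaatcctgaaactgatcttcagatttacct
Otog, chr7:46240737-46241036, plus strand: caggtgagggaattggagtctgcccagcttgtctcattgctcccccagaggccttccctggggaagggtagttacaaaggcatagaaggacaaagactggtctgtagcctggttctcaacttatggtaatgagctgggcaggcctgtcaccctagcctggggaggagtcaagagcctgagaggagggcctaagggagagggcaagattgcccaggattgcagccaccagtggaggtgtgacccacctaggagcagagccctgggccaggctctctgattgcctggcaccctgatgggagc
Epcam, chr17:87635729-87636028, plus strand: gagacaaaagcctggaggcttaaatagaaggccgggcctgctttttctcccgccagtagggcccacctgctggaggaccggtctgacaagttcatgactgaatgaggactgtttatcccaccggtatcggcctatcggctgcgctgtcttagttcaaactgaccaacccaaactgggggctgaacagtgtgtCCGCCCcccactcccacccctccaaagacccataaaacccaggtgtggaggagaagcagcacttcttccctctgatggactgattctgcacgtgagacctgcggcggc
Acta1, chr8:123894726-123895025, minus strand: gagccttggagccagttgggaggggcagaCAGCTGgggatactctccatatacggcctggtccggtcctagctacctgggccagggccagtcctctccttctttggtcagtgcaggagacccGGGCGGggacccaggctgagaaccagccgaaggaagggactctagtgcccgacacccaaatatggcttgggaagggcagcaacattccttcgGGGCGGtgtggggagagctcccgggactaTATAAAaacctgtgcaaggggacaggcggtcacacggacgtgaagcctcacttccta
Myh3, chr11:67078050-67078349, plus strand: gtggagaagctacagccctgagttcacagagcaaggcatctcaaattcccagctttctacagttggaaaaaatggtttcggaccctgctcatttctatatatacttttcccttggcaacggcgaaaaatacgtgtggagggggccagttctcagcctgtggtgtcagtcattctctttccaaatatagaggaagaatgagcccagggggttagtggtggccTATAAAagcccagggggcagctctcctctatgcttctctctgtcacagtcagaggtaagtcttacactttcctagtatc
Myh8, chr11:67276874-67277173, plus strand: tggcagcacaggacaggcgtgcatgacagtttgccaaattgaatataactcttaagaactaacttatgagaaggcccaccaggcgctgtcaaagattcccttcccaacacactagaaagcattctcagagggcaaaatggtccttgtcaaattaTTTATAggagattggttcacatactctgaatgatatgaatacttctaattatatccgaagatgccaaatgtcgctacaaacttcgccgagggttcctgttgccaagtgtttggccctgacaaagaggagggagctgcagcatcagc
The windows of Tecta and Otog held none of these 6-letter words. Epcam held 1 GGGCGG, read on the opposite strand. Myh3 held 1 TATAAA on its own strand at -29 from the start. The 1 TATAAA of Myh8 was read on the opposite strand at -96, so it matched the letters but not the strand and place of the one in Myh3. Acta1 held all 3 words in 4 matches, 2 of them GGGCGG. Of the 16349 tested members, 11471 had a promoter in the table. TATAAA stood in 11.2% of the promoters of members higher in the SOC, in 6.66% of those higher in the cochlea, in 6.64% of those not called and in 13.6% of all 32851 promoters of the table. CAGCTG stood in 19.5%, 14.9%, 15% and 16.3% of these sets, and GGGCGG in 56.8%, 62.9%, 65% and 35.7%. Among the 17 skeletal muscle members with a promoter, 10 held CAGCTG and 6 held TATAAA. Among the 7 apical matrix members with a promoter, none held either word. These are matches of letters in a window and no measure of binding.

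The E16 libraries held 21342205 to 26847066 counts each. Between replicates, the chi-square statistic of the counts over genes was 4.98 to 24.5 per degree of freedom in the cochlea and 24.8 to 109 in the SOC, so that all libraries differed beyond counting noise and the SOC libraries more so. SOC replicate 4 stood farthest apart, with the strongest dependence of its deviations on transcript GC content (Spearman's rho -0.725 across genes, which are not independent replicates). Without it, 2244 in place of 2563 members were higher in the cochlea and 1896 in place of 1915 in the SOC. Leaving out cochlea replicate 3 instead moved both counts more, to 2215 and 2115. Within each of 4 sets of libraries of the table (all cochlea libraries form 1 set, SOC replicates 1 to 3 and replicate 4 of E16 belong to separate sets) a gene either was at 0 throughout or had a highest count of at least 21. This pattern was read, from the values alone, as a table put together from separately filtered parts, so a gene at 0 throughout a set was taken to have had up to 20 counts in each library, which is 0.745 to 0.855 CPM (a gene's counts scaled to a common library total) in the cochlea and 0.86 to 0.937 CPM in the SOC. A 0 in a set where the gene had counts allows 3 counts, 0.112 to 0.128 and 0.129 to 0.141 CPM. These limits and the intervals below cover counting error only. The p-values measure the spread between pools of the same organ and age, estimated over all 20 libraries and not at E16 alone. Since the tissue was measured in bulk, fewer cells of a type and less RNA per cell cannot be told apart.

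Of the members, 16349 passed the filter on low values. A gene was called when its adjusted p in edgeR's quasi-likelihood test was under 0.01, its fold change over 2.5 and no library of one organ overlapped those of the other. By this rule the cochlea was the higher organ for 2563 members (15.7% of those tested) and the SOC for 1915 (11.7%), and 11871 were not called. Of the 15025 members over 0.5 CPM in at least 3 E16 libraries of both organs, 2150 were higher in the cochlea and 1619 in the SOC. Another 618 passed this level only in the cochlea and 468 only in the SOC. Of these, 396 were called higher in the cochlea and 290 in the SOC. None was called against the organ where it passed, so their direction is no separate result. Over all 21912 tested genes, which include those seen in only one organ, 32.9% were called higher in the cochlea and 11.1% in the SOC. Log2 differences are given throughout as cochlea minus SOC, after TMM scaling, with the standard error (SE) of the fit, and levels are CPM. The median log2 difference of all members was 0.107. It was 2.14 among those called higher in the cochlea and -2.13 among those called higher in the SOC. When the transcript GC content of each library was adjusted for, the balance turned, with 2136 members higher in the cochlea and 2399 in the SOC. The cochlea then held 47.1% of the called members in place of 57.2%. In the other alternatives this share was 51.2% (without cochlea replicate 3) to 58.7% (with the replicate block). With the E16 libraries alone it was 51.6%. Membership was also uneven. A gene at 0 throughout the cochlea set was excluded, but one at 0 throughout 1 SOC set could remain a member. With counts required in every set holding an E16 library, 2141 members were higher in the cochlea and 1915 in the SOC (52.8% in the cochlea). When the fold of 2.5 was itself the hypothesis tested (glmTreat), 1432 and 1189 members remained past the threshold.

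**Figure D1:**
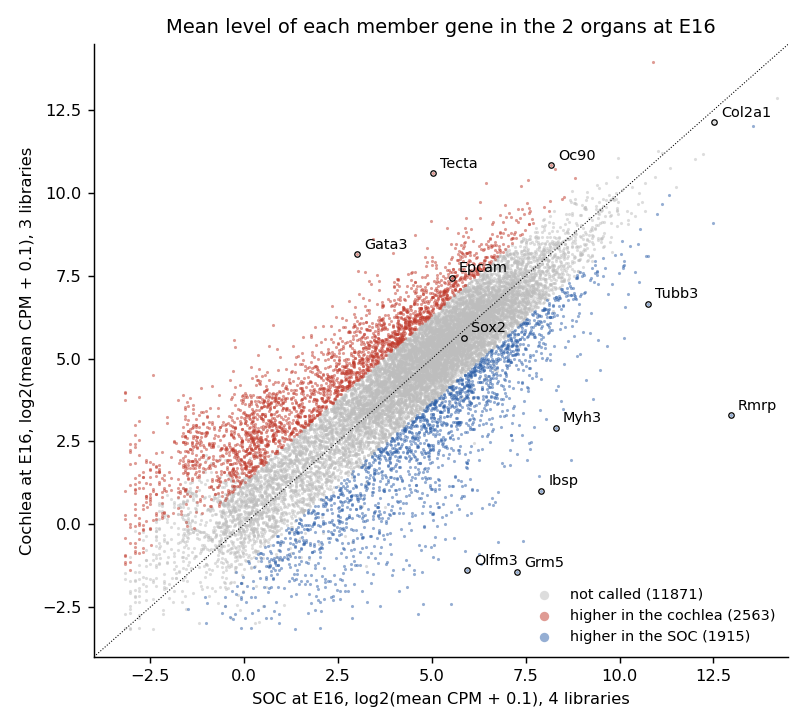
Mean level of each tested member in the SOC (4 libraries, horizontal axis) and in the cochlea (3 libraries, vertical axis) at E16, as log2 of the mean CPM plus 0.1. Each point is a gene, red where it was called higher in the cochlea (2563), blue where it was called higher in the SOC (1915) and grey where it was not called (11871). Tecta, Oc90 and Gata3 lie above the diagonal, Tubb3, Grm5, Olfm3 and Rmrp below it, and Sox2 and Col2a1 near it.

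The called members differed in kind. Of those higher in the cochlea, 70.9% were protein coding, 11.3% were long non-coding RNAs and 15.9% were single-exon transcripts still to be experimentally examined (TEC), whereas of those higher in the SOC 94.4% were protein coding, 3.46% long non-coding and 0.524% TEC. The uncalled members had 91.5%, 4.86% and 1.55%. The median transcript GC content lay between 50.7% and 51.4% in all 3 sets. The mean level in the higher organ had a median of 18.4 CPM among the cochlea-higher members and 32.8 CPM among the SOC-higher members. The kits differed between the organs, and their part in these shares was not tested.

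The transcription factors that build the inner ear were higher in the cochlea. Of 19 tested members of this list, 14 were higher in the cochlea and 1 in the SOC, with a median log2 difference of 2.27. Gata3, a zinc finger factor needed for prosensory development and for spiral ganglion neurons, stood at 277, 301 and 278 CPM in the cochlea libraries and at 5.998, 12.8, 7.78 and 5.03 CPM in the SOC libraries. The organs did not overlap, with a log2 difference of 5.18 (SE 0.25, adjusted p = 1.84e-11). Eya1, a transcriptional cofactor and phosphatase at the head of the otic program, stood at 262, 262 and 253 CPM against 50.2, 55.1, 48.3 and 59.9 CPM, a log2 difference of 2.27 (SE 0.11, adjusted p = 2.77e-11). Eya4, a gene of late-onset human deafness, had 197 ± 11.3 CPM (SD, n = 3) in the cochlea and 23.1 ± 5.75 CPM (SD, n = 4) in the SOC. These 3 factors were thus at several times the SOC level in every cochlea library, and none was at 0 in the SOC. The exception in the list was Gbx2, a homeobox gene of both the otocyst and the anterior hindbrain, with 0.123, 0.128 and 0.4097 CPM in the cochlea and 2.999, 4.99, 6.86 and 2.45 CPM in the SOC (log2 -4.22, adjusted p = 1.42e-05). An opposite-strand gene covers 43.5% of its exons. Otx1 had a mean of 9.32 CPM in the cochlea and no counts in the SOC, and Pax8 8.28 CPM in the SOC and no counts in the cochlea, so neither was a member.

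The proteins of the acellular membranes over the hair cells gave the largest differences of any cochlear list. Of 9 tested members, 7 were higher in the cochlea, with a median log2 difference of 2.95 over the 9. Tecta, alpha-tectorin of the tectorial membrane, stood at 1602, 1557 and 1522 CPM in the cochlea and at 24.1, 50.8, 29.4 and 25.4 CPM in the SOC. The lowest cochlea library was far above the highest SOC library, with a log2 difference of 5.59 (SE 0.38, adjusted p = 1.07e-09). Otog, the otogelin of the same membranes, had 389, 489.6 and 404 CPM against 18.6, 32.1, 28.8 and 14.1 CPM (log2 4.20, SE 0.28, adjusted p = 8.91e-10). Oc90, the main matrix protein of otoconia, had 1754, 1913 and 1855 CPM against 289, 306, 305 and 254 CPM (log2 2.67, SE 0.20, adjusted p = 3.21e-09). Oc90 was therefore abundant in the SOC libraries as well. Otogl had 269 ± 16.9 and 28.3 ± 2.99 CPM, with a log2 difference of 3.25. Of the members named after their values were seen, Tectb (beta-tectorin) differed by 4.63 on the log2 scale, Otoa by 2.95 and Otol1 by 2.11, all higher in the cochlea. Otop1, a proton channel of the otoconial organs, went the other way at a low level, with a mean of 0.228 CPM in the cochlea and 2.32 CPM in the SOC (adjusted p = 0.000164).

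The epithelial character of the cochlea was as uniform. Of 26 tested members for junctions, keratins and epithelial splicing, 22 were higher in the cochlea and none in the SOC, with a median log2 difference of 2.29. Epcam, the epithelial cell adhesion molecule, stood at 175, 178 and 169 CPM in the cochlea and 49.4, 44.9, 43.3 and 47.4 CPM in the SOC, without overlap (log2 1.91, SE 0.14, adjusted p = 2.89e-09). Cdh1 (E-cadherin) was 143 ± 4.75 against 15.8 ± 3.78 CPM, and Cldn6, a tight junction claudin, 133 ± 5.804 against 12.01 ± 2.52 CPM. Spint2, an inhibitor of membrane serine proteases, had a log2 difference of 2.73. Summed over the list, the cochlea libraries held 1152 to 1298 CPM and the SOC libraries 185.8 to 315.3 CPM.

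Hair cell genes were less sharply divided. Of 30 genes, 20 were members, of which 8 were cochlea-higher, 2 SOC-higher and 10 not called, with a median log2 difference of 0.56, while the other 10 had counts at E16 in the cochlea only. Ush1c (harmonin of the stereocilia) stood at 94.9, 109 and 86.2 CPM in the cochlea and 4.73, 4.8, 5.98 and 4.298 CPM in the SOC (log2 4.29, SE 0.22, adjusted p = 4.11e-11), and Pcdh15, a tip link cadherin, at 63.7 ± 5.37 and 20.5 ± 3.19 CPM (log2 1.63). Of the most abundant unconventional myosins of the list, Myo7a had 49.6, 53.7 and 52.7 CPM in the cochlea and 45.4, 48.6, 55.7 and 24.4 CPM in the SOC, which overlapped (adjusted p = 0.321). Myo6 did not overlap but differed by 0.91 on the log2 scale (adjusted p = 5.25e-06), below the fold asked for, and Myo15, named after its value was seen, was higher in the cochlea (log2 2.20). Named after their values were seen, Pou4f3, the hair cell survival factor, differed by 2.05 and Espn (espin, which bundles actin in stereocilia) by 3.52 on the log2 scale, and the 2 members higher in the SOC were Slc17a8, a vesicular glutamate transporter of inner hair cells and also of brainstem neurons (log2 -2.25), and Lhx3, a LIM factor of hair cells and also of motor neurons and interneurons (log2 -1.98). Those with counts in the cochlea alone were low at this age, the highest being Grxcr1 with a mean of 7.4 CPM and Loxhd1 with 4.03 CPM, and their zeros in the SOC allow up to 0.937 CPM.

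Prosensory and supporting cell genes split. Of 19 tested members, 6 were cochlea-higher, 2 SOC-higher and 11 not called (median log2 0.58). Jag1, the Notch ligand of prosensory cells, had 231, 237 and 231 CPM in the cochlea and 73.5, 73.2, 67.7 and 63.8 CPM in the SOC (log2 1.74, SE 0.12, adjusted p = 1.35e-09). Fgfr3, the receptor of developing pillar cells and also of neural progenitors and astrocytes, was higher in the SOC, with 46.03 ± 7.48 against 155 ± 27.97 CPM (log2 -1.75). Cdkn1b (p27Kip1), which marks cell cycle exit of prosensory cells, had 135 ± 4.34 and 89.4 ± 14.1 CPM and was not called, and Hmga2, a chromatin factor of immature cells, had 81.2 ± 5.66 and 7.52 ± 1.97 CPM (log2 3.43). Of the rest of the list, Lgr5, a Wnt co-receptor of cochlear progenitors, differed by 3.13 on the log2 scale and Prox1 by 1.79, both named after their values were seen.

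Genes of cells that accompany the sensory epithelium were examined next. For the stria vascularis and its melanocytes, 7 of 14 tested members were higher in the cochlea and none in the SOC (median log2 1.76). In order of level, the sodium-potassium-chloride transporter Slc12a2 had 283 ± 38.5 against 135 ± 29.9 CPM and was not called, the gap junction gene Gjb2 had 127.8 ± 5.58 against 27.3 ± 2.79 CPM (log2 2.22), and the melanin synthesis gene Dct 61.5 ± 1.19 against 7.33 ± 1.197 CPM (log2 3.07). Kit, the receptor of melanoblasts and other progenitors, did not differ beyond the threshold (51.6 ± 2.9 and 56.6 ± 10.03 CPM). For Schwann cells, 4 of 11 tested members were higher in the cochlea and none in the SOC (median log2 1.12), led by the neuregulin receptor Erbb3 with 294, 280.2 and 288 CPM against 56.9, 58.4, 55.1 and 36.9 CPM (log2 2.47, SE 0.17, adjusted p = 1.52e-09) and by the neural crest factor Sox10 with 192 ± 53.8 against 21.6 ± 7.75 CPM. The next gene by level, Pmp22, lay the other way but short of the fold (24.3 ± 5.13 and 38.8 ± 4.35 CPM, log2 -0.68). Every SOC library was above every cochlea library for Pmp22. For otic mesenchyme, 4 of 16 tested members were higher in the cochlea and 2 in the SOC (median log2 0.56). Col3a1, a fibrillar collagen, had 1721 ± 61.3 and 2606 ± 508 CPM and was not called, Otor (otoraplin of the spiral ligament and cochlear capsule) had 891, 672 and 841 CPM in the cochlea and 136, 113, 108 and 135 CPM in the SOC (log2 2.70), and Postn (periostin) had 183 ± 19.98 and 669.5 ± 129.8 CPM (log2 -1.88), so that the most abundant members of the list went in different ways.

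Genes of peripheral sensory neurons, which innervate the ear but also other parts of the head, showed no direction as a group, with 3 of 12 tested members higher in each organ. Ntrk3, the receptor of neurotrophin-3, had 131 ± 14.2 and 72.98 ± 21.3 CPM and was not called. Prph (peripherin), an intermediate filament of spiral ganglion type II neurons and of brainstem motor neurons, was higher in the SOC (11.96 ± 2.5 and 85.2 ± 15.3 CPM, log2 -2.85), and P2rx3, an ATP-gated channel of sensory afferents, was higher in the cochlea (50.1 ± 3.91 and 8.66 ± 2.398 CPM, log2 2.52).

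**Figure D2:**
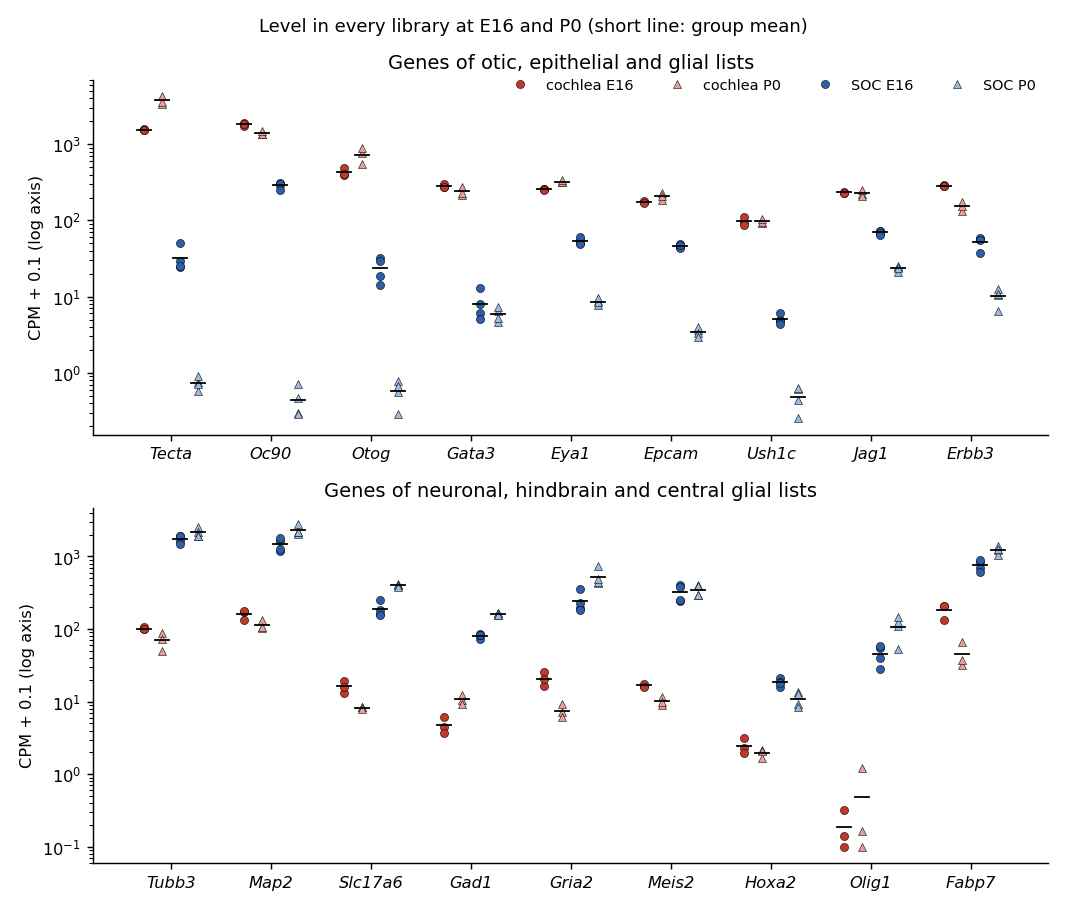
Level of 18 identity genes in every library, as CPM plus 0.1 on a log axis, with circles for E16, triangles for P0, red for the cochlea, blue for the SOC and a short line at each group mean. At E16 the cochlea libraries lie above all SOC libraries for the 9 genes of the upper panel and below them for the 9 genes of the lower panel, and Tecta, Oc90 and Otog are far lower in the SOC at P0 than at E16.

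On the side of the SOC, neuronal identity was general. Of 25 tested pan-neuronal members, 18 were higher in the SOC and none in the cochlea, with a median log2 difference of -1.98. Tubb3, the neuronal class III beta-tubulin, stood at 98.8, 105 and 98.6 CPM in the cochlea and 1907, 1635, 1935 and 1487 CPM in the SOC, without overlap (log2 -4.11, SE 0.20, adjusted p = 2.22e-11). Map2, a dendritic microtubule protein, stood at 172, 134 and 176 CPM against 1178, 1640, 1276 and 1803 CPM (log2 -3.20, SE 0.21, adjusted p = 7.70e-10). Nefl (neurofilament light chain) had a log2 difference of -3.26, with an opposite-strand gene over 32.8% of its exons, and Mapt (tau) one of -2.55. Summed over the list, the SOC libraries held 10260 to 11980 CPM and the cochlea libraries 2024 to 2356 CPM, so transcripts of this list were present in the cochlea too. The spiral ganglion lies beside the epithelium, and which cells these transcripts came from was not tested.

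Transmitter genes followed. Of 14 tested members, 11 were higher in the SOC and none in the cochlea (median log2 -3.35), and 5 further genes of the list had counts at E16 in the SOC only. Slc17a6 (VGLUT2), the vesicular glutamate transporter of developing brainstem neurons, stood at 19.1, 13.2 and 15.98 CPM in the cochlea and 161, 184, 158 and 254 CPM in the SOC (log2 -3.56, SE 0.23, adjusted p = 4.74e-10). Gad1, which synthesises GABA, had 4.34, 6.11 and 3.61 CPM against 72.1, 86.2, 82.9 and 83.8 CPM (log2 -4.12, SE 0.18, adjusted p = 7.42e-12). Slc5a7, the choline transporter of cholinergic neurons, was not called, with 44.4, 33.2 and 37.1 CPM in the cochlea and 18.2, 25.8, 18.2 and 40.5 CPM in the SOC. The glycinergic genes of the list, which mark the inhibitory neurons of the SOC, were among those without counts in the cochlea, with means in the SOC of 16.9 CPM for the inhibitory vesicular transporter Slc32a1 and 16.3 CPM for the glycine transporter Slc6a5. The list also held monoamine genes of neighbouring hindbrain nuclei, named after their values were seen. The noradrenaline transporter Slc6a2 differed by -6.32, the tryptophan hydroxylase Tph2 by -3.29 and the serotonin transporter Slc6a4 by -3.40 on the log2 scale.

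Receptors for fast transmission were the most one-sided neuronal list, with 20 of 23 tested members higher in the SOC and none in the cochlea (median log2 -2.59). Gria2, the AMPA receptor subunit that sets calcium permeability, had 25.5, 16.5 and 20.2 CPM in the cochlea and 195, 227, 185 and 355 CPM in the SOC (log2 -3.55, SE 0.30, adjusted p = 1.12e-08). Gria4, the AMPA subunit of fast auditory synapses, was present in both, at 31.8 ± 3.27 and 146 ± 26.8 CPM (log2 -2.20).

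The positional code of the hindbrain was visible as presence against absence. Of the 9 Hox genes of the hindbrain list in the table, only Hoxa2 had counts in both organs, at 2.17, 3.04 and 1.86 CPM in the cochlea and 16.02, 20.8, 18.5 and 18.2 CPM in the SOC (log2 -2.97, SE 0.22, adjusted p = 2.62e-09). The other 8 were at 0 in every cochlea library and had counts in all SOC libraries, so a fold is a lower bound against 20 counts in each cochlea library. Hoxb3 stood at 9.61, 27.5, 21.1 and 8.897 CPM in the SOC, at least 20.8-fold higher, and Hoxb2 at 11.4, 17.1, 16.2 and 10.3 CPM, at least 17.1-fold higher. Hoxd3 was at least 4.14-fold, Hoxa3 at least 2.79-fold and Hoxb4 at least 1.81-fold higher. For Hoxc4 the bound was 1.09-fold, and Hoxa4, with 0.187, 0.877, 0.615 and 0.172 CPM, lay under the limit, so these were not told apart from the cochlea at this depth. Opposite-strand genes cover 52.9% of the exons of Hoxb3 and 27.3% of those of Hoxb2, and 62.3% of those of Hoxd3 lie under a gene on the same strand. Of the posterior Hox genes, which are expressed caudal to the hindbrain, 1 was a member, Hoxd8, at 1.54 ± 0.2999 and 1.66 ± 0.285 CPM and not called, and Hoxa5 had counts in the SOC only (0.469, 1.01, 0.659 and 0.602 CPM).

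Among transcription factors of hindbrain neurons, 5 of 12 tested members were higher in the SOC and 1 in the cochlea (median log2 -1.44), and 14 had counts at E16 in the SOC only. Meis2, a Hox cofactor, had 16.5, 17.6 and 15.9 CPM in the cochlea and 241, 408, 376 and 252 CPM in the SOC (log2 -4.26, SE 0.21, adjusted p = 2.79e-11). Foxp1, a forkhead factor of motor neurons and other tissues, was the one higher in the cochlea, at 208 ± 9.57 against 80.6 ± 17.8 CPM, a log2 difference of 1.37 that lies near the fold of 2.5. Its call was lost in 5 alternatives, namely without cochlea replicate 3, without SOC replicate 1, with the libraries of E16 alone, with joined zeros at 20 counts and with the GC adjustment. Meis1 differed by -1.50, and Foxp2 was not called (77.8 ± 6.33 and 86.3 ± 32.6 CPM). Of the genes seen in the SOC alone, Lhx5, a LIM factor of interneurons named after its value was seen, had a mean of 20.1 CPM.

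Progenitor and glial genes of the brainstem were mixed. Of 14 tested neural progenitor members, 7 were higher in the SOC and 2 in the cochlea (median log2 -1.27). Fabp7, a radial glia fatty acid binding protein, had 207, 132 and 206 CPM in the cochlea and 836, 695, 904 and 606 CPM in the SOC (log2 -2.06, SE 0.28, adjusted p = 2.98e-06), while the glutamate transporter Slc1a3 (-1.03) and the intermediate filament Nes (0.49 on the log2 scale) were not called and Notch1 was higher in the cochlea. Named after its value was seen, Hopx, a factor of radial glia, had 0.171 CPM in the cochlea and 20 CPM in the SOC (log2 -6.81). Of 11 tested members of the oligodendrocyte lineage, 5 were higher in the SOC and 1 in the cochlea (median log2 -1.29). Pdgfra, the receptor of precursor cells and of mesenchyme, did not differ beyond the threshold (364 ± 16.3 and 324 ± 37.6 CPM), Cspg4 (NG2) did (log2 -1.99), and Olig1, which is restricted to this lineage and its progenitors, stood at 0, 0.0428 and 0.224 CPM in the cochlea and 40.2, 55.1, 57.7 and 27.8 CPM in the SOC (log2 -8.83, SE 0.85, adjusted p = 6.01e-08). The member higher in the cochlea was the myelin gene Mog, at 3.34 against 0.290 CPM, named after its value was seen.

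A list of 17 factors with a described role in both organs, of which 15 were in the table, gave 13 tested members, of which 5 were cochlea-higher, 4 SOC-higher and 4 not called. Higher in the cochlea were Gata3 and Eya1 (above), the LIM factor Isl1 at 132 ± 4.97 against 40.1 ± 7.82 CPM, the roof plate factor Lmx1a at 53.1 ± 3.58 against 16.6 ± 2.304 CPM, and the paired box factor Pax2 at 24.4 ± 6.88 against 2.33 ± 1.58 CPM. Higher in the SOC were Hoxa2 and Gbx2 (above), the proneural factor Neurod1 at 1.85 ± 0.292 against 10.4 ± 1.55 CPM, and Lmx1b, a factor of serotonergic neurons, at 0.219 ± 0.199 against 5.77 ± 2.76 CPM. Not called were Sox2, the progenitor factor of both the prosensory domain and the neural tube, at 51.1, 49.8 and 48.2 CPM in the cochlea and 67.6, 62.5, 59.1 and 42.9 CPM in the SOC (adjusted p = 0.113), and Atoh1, the proneural factor that specifies hair cells and rhombic lip neurons, at 8.26, 9.405 and 7.71 CPM and 10.6, 10.9, 12.8 and 6.58 CPM (adjusted p = 0.339). The groups overlapped for both. Pou4f1 (23.3 ± 1.68 and 11.4 ± 1.31 CPM) was also not called. Hoxb2 and Tlx3 were seen in the SOC only, Tlx3 at least 3.4-fold higher there.

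Of the signalling pathways, Wnt genes leaned to the cochlea, with 10 of 33 tested members higher there and 3 in the SOC (median log2 0.58), where 15.7% and 11.7% of all members were called. The secreted inhibitor Sfrp1 had 433, 489 and 444 CPM in the cochlea and 107, 125, 108 and 108 CPM in the SOC (log2 2.02, SE 0.11, adjusted p = 1.19e-10). The ligand Wnt5a, which acts in planar polarity of the cochlear duct, differed by 2.34 and the receptors Fzd7 and Fzd2 by 1.98 and 1.58 on the log2 scale. The 3 higher in the SOC were the inhibitors Sfrp5, Sfrp4 and Dkk1, all below 5 CPM on average in both organs. In the Notch pathway 4 of 18 tested members were higher in the cochlea and 2 in the SOC (median log2 0.49). The receptors Notch1 (375 ± 53.9 against 90.6 ± 28.3 CPM, log2 2.06) and Notch3 (209 ± 21.4 against 46.9 ± 14.4 CPM, log2 2.16) were higher in the cochlea together with Jag1, and Notch2 (300.5 ± 15.3 against 181 ± 20.4 CPM) was not called. The ligand Dll1 and the effector Hes5, named after their values were seen, were higher in the SOC, by -1.87 and -3.06. In the FGF pathway 5 of 22 were higher in the cochlea and 3 in the SOC (median log2 0.46). Receptors differed in direction, with Fgfr1 at 1.42, Fgfr2 at 0.43 and not called, and Fgfr3 at -1.75 on the log2 scale, and the feedback phosphatase Dusp6 was not called (0.49). The call of Fgfr1 was lost without SOC replicate 4 or cochlea replicate 2, with the replicate block and with the GC adjustment.

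**Figure D3:**
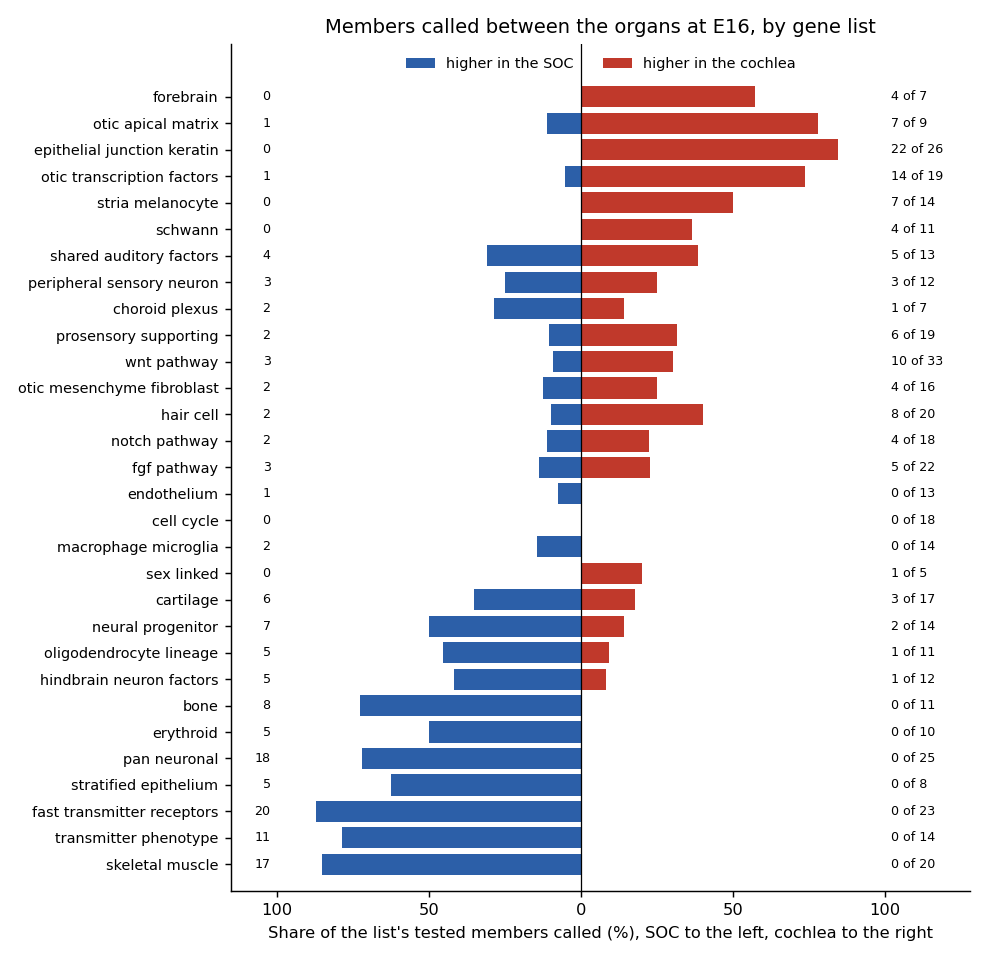
Share of the tested members of each list that were called at E16, to the left where higher in the SOC and to the right where higher in the cochlea, in percent, with the number called beside each bar and the lists ordered by their median log2 difference. Epithelial, otic factor and apical matrix lists point to the cochlea (22 of 26, 14 of 19 and 7 of 9), and receptors, transmitter genes, pan-neuronal genes and skeletal muscle to the SOC (20 of 23, 11 of 14, 18 of 25 and 17 of 20).

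The SOC libraries of E16 also carried markers of head tissues that are no part of the brainstem. Of 20 tested skeletal muscle members, 17 were higher in the SOC and none in the cochlea, with a median log2 difference of -5.09, the lowest of all lists. Acta1, skeletal alpha-actin, stood at 2.33, 4.45 and 1.12 CPM in the cochlea and 419.5, 182, 205 and 124 CPM in the SOC (log2 -6.48, SE 0.72, adjusted p = 3.11e-07). The embryonic myosin Myh3 stood at 9.45, 11.03 and 1.79 and 448, 263, 265 and 283 CPM (log2 -5.42, SE 0.86, adjusted p = 1.72e-05), the perinatal myosin Myh8 at 4.21, 7.95 and 0.633 and 243, 122, 127 and 119.7 CPM, and titin (Ttn) at 54.9, 65.2 and 19.9 and 425, 232, 167 and 763 CPM. DESeq2 did not call Myh8. No SOC library lacked these genes, and SOC replicate 1 was the highest for the myosins and actin. Summed over the muscle list, the SOC libraries held 1281 to 2608 CPM at E16 and 47.87 to 67.66 CPM at P0, and the cochlea libraries of E16 held 58.22 to 147.3 CPM. Myog, a muscle differentiation factor of the list, had a mean of 21.02 CPM in the SOC. It had no counts in the cochlea and so was not a member.

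Of skeletal and blood genes, those of bone went the same way, and those of cartilage and blood in part. For bone, 8 of 11 tested members were higher in the SOC and none in the cochlea (median log2 -1.77), among them Col1a1 at 218, 449 and 199 CPM in the cochlea and 863, 1191, 1207 and 911 CPM in the SOC (log2 -1.85, SE 0.41, adjusted p = 0.000496) and Ibsp (bone sialoprotein of osteoblasts) at 2.04, 1.54 and 2.198 and 154, 257, 225 and 329 CPM (log2 -6.97, SE 0.47, adjusted p = 9.08e-10). For cartilage, 6 of 17 were higher in the SOC and 3 in the cochlea (median log2 -0.38). Col2a1, the main cartilage collagen, which the otic capsule and the cochlear epithelium also make, overlapped between the organs at 4083, 5045 and 4330 and 6982, 6104, 7107 and 3187 CPM (adjusted p = 0.517), as did Col9a1, and Col11a1 fell short of the fold. Col11a2 was higher in the SOC (log2 -1.87), and so, named after their values were seen, were the cartilage proteoglycan Acan, at 13.8 against 632.4 CPM, and Col10a1 of hypertrophic cartilage, at 4.77 against 194.6 CPM. The members higher in the cochlea were Epyc, Sox9 and Ucma, of which Epyc and Sox9 are also genes of the otic epithelium. For erythroid cells, 5 of 10 were higher in the SOC (median log2 -1.91), led by the adult beta-globin Hbb-bs with 289, 403 and 359 CPM in the cochlea and 2021, 1258, 1417 and 1049 CPM in the SOC (log2 -2.03, adjusted p = 0.000383). The heme synthesis gene Alas2 (log2 -0.52) and the anion exchanger Slc4a1 (log2 -0.03) were not called, and the erythroid factor Klf1 had a mean of 2.53 CPM in the cochlea and no counts in the SOC, and Rhag, another erythroid gene with no counts in the SOC, had 0.332 CPM in the cochlea, all named after their values were seen. Reads of the near-identical globin copies Hba-a1 and Hba-a2, and of Hbb-bs and Hbb-bt, may be divided between them.

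Skin and mucosa keratins were higher in the SOC as well. Of 8 tested members for stratified epithelium, 5 were higher in the SOC (median log2 -2.55), with Krt15 at 2.04, 6.11 and 2.46 CPM in the cochlea and 42.4, 27.4, 26.2 and 7.26 CPM in the SOC (log2 -2.86, adjusted p = 4.01e-05). Krt14 of basal keratinocytes was at 0 in every cochlea library and had 34.7, 14.54, 12.5 and 3.57 CPM in the SOC, at least 20.3-fold higher on average. The choroid plexus list had no common direction, with 2 of 7 higher in the SOC, 1 in the cochlea and a median log2 of 0.64. Its defining marker Ttr (transthyretin) had 7.77, 11.9 and 7.41 CPM in the cochlea and a wide 146, 367, 487 and 60.2 CPM in the SOC (log2 -4.86, adjusted p = 0.000179). The next gene by level, Clic6, was higher in the cochlea (104.4 ± 7.9 and 12.7 ± 5.54 CPM, log2 3.05). Summed over this list, the SOC libraries held 126.1 to 581 CPM at E16 and 214.8 to 667.2 CPM at P0. Endothelial and macrophage lists were nearly even, with 1 of 13 and 2 of 14 tested members higher in the SOC and none in the cochlea. Kdr, the endothelial VEGF receptor, had 99.7 ± 4.48 and 88.4 ± 5.59 CPM and Csf1r of macrophages 38.02 ± 1.89 and 32.8 ± 4.66 CPM. The endothelial exception was Cldn5, the claudin of the blood-brain barrier (14.1 ± 1.84 and 68.5 ± 17.98 CPM, log2 -2.28), and a macrophage exception, named after its value was seen, was the microglial receptor P2ry12 (-1.52 on the log2 scale). No tested member of 18 for the cell cycle was called (median log2 0.25). The proliferation antigen Mki67 had 365, 339 and 388 CPM in the cochlea and 162, 225, 189 and 158 CPM in the SOC, which did not overlap but missed the threshold (adjusted p = 0.0634), and Top2a and Mcm6 overlapped.

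**Figure D4:**
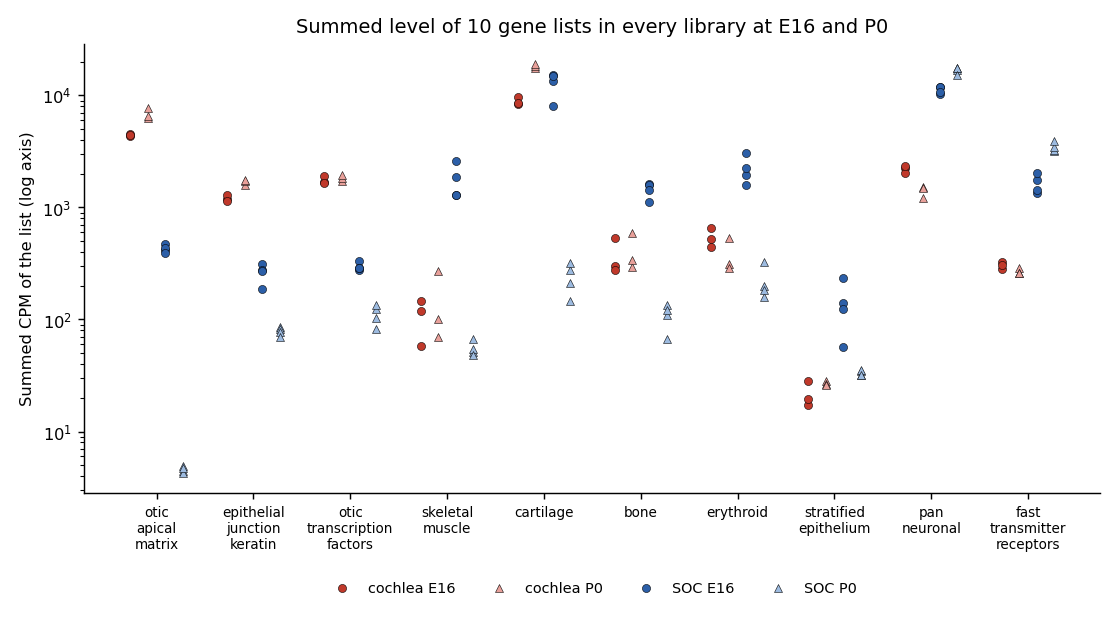
Summed CPM of 10 gene lists in every library on a log axis, with circles for E16, triangles for P0, red for the cochlea and blue for the SOC. The SOC libraries of E16 lie above those of P0 for the 5 lists of other head tissues and the 3 otic and epithelial lists, and below them for the 2 neuronal lists, as for apical matrix genes with 396 to 469 CPM at E16 and 4.3 to 4.919 CPM at P0.

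Transcripts of inner ear genes were also present in the embryonic SOC libraries. Summed over the apical matrix list, the SOC libraries held 396 to 469 CPM at E16 and 4.3 to 4.919 CPM at P0, against 4366 to 4551 CPM in the cochlea at E16. Oc90 had a mean of 288 ± 23.9 CPM (SD, n = 4) in the SOC at E16 and 0.343 CPM at P0, Tecta 32.5 ± 12.4 and 0.632 CPM, and Otor 123 and 0.323 CPM. Every SOC library of E16 was above every SOC library of P0 for these genes. In the SOC the otic factor list summed to 279.4 to 335.3 CPM at E16 and 81.86 to 135.1 CPM at P0, and the epithelial list to 185.8 to 315.3 CPM and 69.38 to 85.25 CPM. The differences of otic and epithelial genes between the organs at E16 were measured with these transcripts present in the SOC, and the share of each SOC value that came from tissue outside the brainstem was not tested.

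Whether the organs differed otherwise at E16 than at P0 was tested by the interaction of organ and age. Of the 16349 tested members, 647 (3.96%) had a difference lying more toward the cochlea at E16 and 1280 (7.83%) one lying more toward the SOC at E16, at an adjusted p under 0.01 and a fold over 2.5. With glmTreat the counts were 75 and 494. Of the 2563 members higher in the cochlea at E16, 2211 were also higher there at P0, 351 were not called and 1 was higher in the SOC, and 55 (2.15%) had an interaction toward the cochlea. Of the 1915 higher in the SOC, 1511 were also higher there at P0, 339 were not called and 65 were higher in the cochlea, and 216 (11.3%) had an interaction toward the SOC. These members were picked by the same E16 difference that enters the interaction, so the shares of 2.15% and 11.3% are not independent of the pick. Most of the 65 that changed sides were in none of the gene lists. The listed ones were 5 members each of the muscle and cartilage lists, 4 of bone, and 2 each of otic mesenchyme and stratified epithelium. None of the 65 was in a neuronal or hindbrain list. The 65 were so small a share of the 16349 tested members that lists of this size could hold none without differing from the rest. Whether the lists differed in their share of members that changed sides was not tested. Postn differed by -1.88 at E16 and 1.61 at P0, Col11a2 by -1.87 and 5.88, Col1a1 by -1.85 and 1.99 and Krt15 by -2.86 and 2.52 on the log2 scale. The 1 member that changed sides the other way, named after its value was seen, was Edn1 (endothelin 1), at 6.71, 6.28 and 4.73 CPM in the cochlea and 1.73, 1.57, 1.98 and 1.16 CPM in the SOC at E16.

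Over the 6 lists of other head tissues (muscle, cartilage, bone, erythroid, choroid plexus and stratified epithelium), 43 of 73 tested members were higher in the SOC at E16 and 5 at P0, and 52 had an interaction toward the SOC at E16. Of the 7 choroid plexus members among the 73, 1 had such an interaction. Over the hair cell, otic factor, apical matrix and epithelial lists, 51 of 74 tested members were higher in the cochlea at E16 and 57 at P0, and 42 had an interaction toward the SOC at E16. The interaction was -6.94 (SE 0.57, adjusted p = 8.54e-08) for Tecta, -9.33 (SE 0.36, adjusted p = 3.99e-11) for Oc90 and -2.98 (SE 0.16, adjusted p = 7.24e-10) for Eya1. Gata3, by contrast, differed by 5.18 at E16 and 5.39 at P0 and had no interaction past the threshold (adjusted p = 0.869). Interactions of the neuronal lists lay mostly the other way, with 1 transmitter member toward the SOC. List medians at E16 and P0 were -1.98 and -3.1 for pan-neuronal members and -2.59 and -4.08 for receptors. For transmitter genes the medians were -3.35 and -2.38, so that list as a whole did not move further apart. The hindbrain neuron factors had medians of -1.44 and -0.99 and no interaction in either direction. The interaction lay toward the cochlea for 9 of 25 pan-neuronal members, 8 of 23 receptor members and 6 of 14 transmitter members, as for Slc17a6, which differed by -3.56 at E16 and -5.62 at P0 (interaction 2.06, SE 0.28, adjusted p = 3.26e-05), and Gria2 with -3.55 and -6.14. In the cochlea the mean of Gria2 was 20.7 CPM at E16 and 7.44 CPM at P0, in the SOC 240.4 and 522 CPM, so the organs were further apart at P0 on both sides. Slc5a7 was uncalled at E16 and higher in the SOC at P0 (log2 -2.08).

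**Figure D5:**
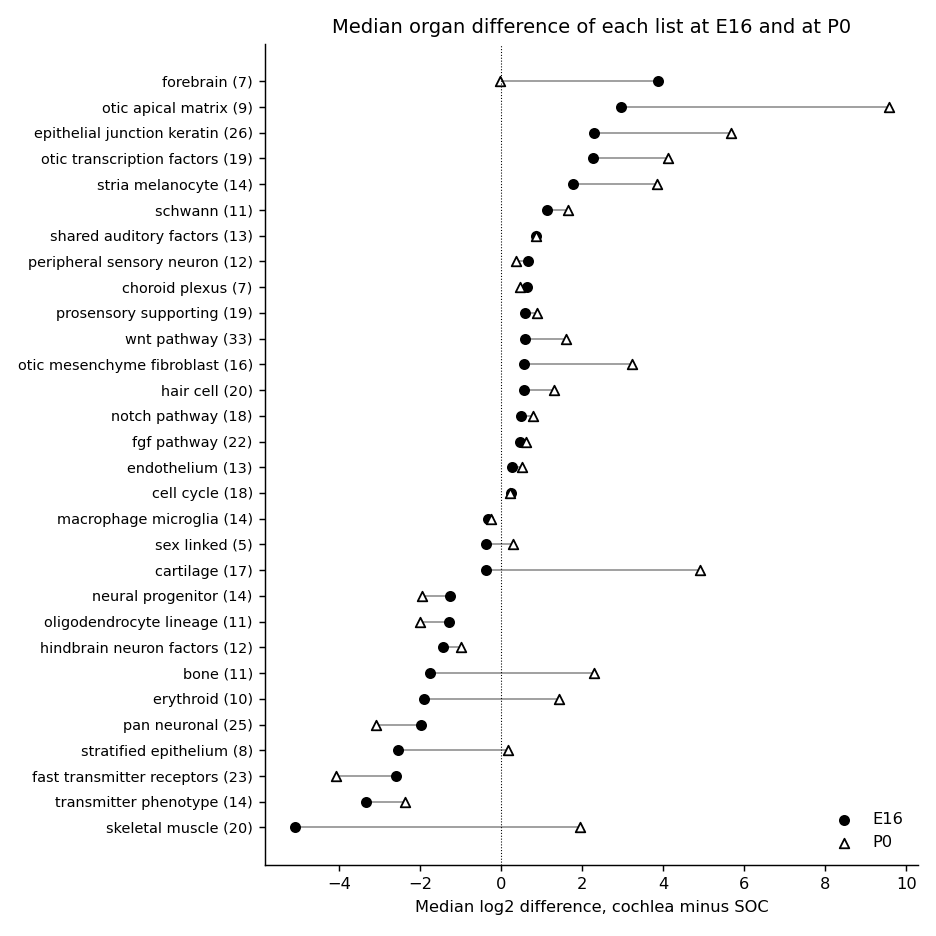
Median log2 difference (cochlea minus SOC) of the tested members of each list at E16 (filled circles) and at P0 (open triangles), with the number of members in parentheses. The medians of skeletal muscle, bone, cartilage, erythroid and stratified epithelium lie below 0 at E16 and above 0 at P0 (muscle -5.09 and 1.94), and those of the otic and epithelial lists are larger at P0 (apical matrix 2.95 and 9.57).

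The members with the largest folds and at least 20 CPM in the higher organ were partly of these programs and partly not. In the cochlea they included Mir6236, Ptger1, Tecta, Mfsd4a, mt-Nd6, Gata3 and 9530082P21Rik. Of the forebrain list, 4 of 7 tested members were higher in the cochlea and none in the SOC (median log2 3.87), among them Emx2 (26.6 ± 1.296 and 1.03 ± 0.689 CPM), Dlx1 (13.5 ± 1.77 and 2.29 ± 0.606 CPM) and, named after its value was seen, Dlx2. The call of Dlx1 was lost without cochlea replicate 2, without SOC replicate 2 and with the GC adjustment. Emx2 is also a gene of the developing ear, whereas Neurod6 of forebrain neurons, with 12.1, 16.6, 14.6 and 10.4 CPM in the SOC, was at 0 in every cochlea library and at least 16.7-fold higher in the SOC. Mt-Nd6, the light-strand complex I gene of the mitochondrial genome, had 446, 314 and 422 CPM in the cochlea and 11.6, 13.1, 4.88 and 13.02 CPM in the SOC (log2 5.20, adjusted p = 6.04e-10). Ptger1, the prostaglandin E receptor EP1, differed by 5.79, Mfsd4a by 5.33 and 9530082P21Rik by 5.09 on the log2 scale, and opposite-strand genes cover 71%, 23.9% and 26.2% of their exons.

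Mir6236, on chromosome 9, is the locus of a small RNA, and its mature sequence from RefSeq is shown because the gene had the largest fitted fold in the cochlea, with the seed (bases 2 to 8) in capitals.
mmu-miR-6236, chr9:110281353-110281371, plus strand: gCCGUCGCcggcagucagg
The gene stood at 44.05, 11.8 and 12.03 CPM in the cochlea libraries. In the SOC it was at 0 in replicates 1 to 3 and had 0.344 CPM in replicate 4, so that its fitted log2 difference of 7.88 (SE 1.33, adjusted p = 3.32e-05) depended on how these zeros were counted and was 4.81 at the lowest and 14.55 at the highest among the alternatives. These are reads of long-RNA libraries over the locus and no measure of the mature miRNA.

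In the SOC the members of largest fold included Rmrp, Grm5, Olig1, C130021I20Rik, Mlc1, 3110035E14Rik and Olfm3, and each was also higher in the SOC at P0. Rmrp, the RNA of a ribonuclease complex present in all cells, had 5.07, 18.1 and 5.997 CPM in the cochlea and 12900, 4043, 6959 and 7908 CPM in the SOC (log2 -9.69, SE 0.89, adjusted p = 3.40e-08). All of its exon lies under another gene on the same strand and 45.8% under one on the other strand. Grm5, the metabotropic glutamate receptor mGluR5, had 0.0818, 0.0855 and 0.633 CPM in the cochlea and 134, 169, 124 and 186 CPM in the SOC (log2 -9.08, SE 0.62, adjusted p = 1.15e-09). C130021I20Rik, a long non-coding RNA, had 4 counts over all cochlea libraries and 2180 over all SOC libraries, a ratio of levels of 457 (exact 95% interval 178 to 1680). Mlc1, a membrane protein of astrocytes, had 0, 0 and 0.261 CPM against 26.4, 22.5, 32.2 and 27.7 CPM (log2 -8.11), and Olfm3, a secreted olfactomedin protein of neurons, 0.282 ± 0.0196 against 61.2 ± 19.6 CPM (log2 -7.75), so that a cochlear background of these brain genes was at or near the limit of detection.

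Genes that differ between the substrains were read as a check. Mmrn1, which C57BL/6JOlaHsd mice are known to lack through a deletion, was at 0 in every cochlea library and stood at 11.1, 13.8, 12.7 and 14.3 CPM in the SOC, at least 16.1-fold higher. Nnt, the mitochondrial transhydrogenase that C57BL/6J mice carry with a deletion of several exons, had 99.3, 97.8 and 93.9 CPM in the cochlea and 44.3, 38.3, 37.4 and 40.3 CPM in the SOC (log2 1.27, SE 0.0984, adjusted p = 4.73e-09) and fell just short of the fold of 2.5. The levels of both genes thus went with the labelled substrains as well as with organ. Of 5 sex-linked genes, which check the pooling of both sexes, Xist had 1345, 1168 and 1025 CPM in the cochlea and 113, 274, 138 and 138 CPM in the SOC (log2 2.83, adjusted p = 9.52e-07) and the Y-linked Ddx3y, Kdm5d and Uty overlapped between the organs, with every library positive for both.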

How the data were processed

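RNA of the cochlear sensory epithelium (E16, n = 3) and of the SOC (E16, n = 4) was sequenced with 13 further libraries of later ages. Per the submitters' processing notes, the authors aligned reads to mm10 with STAR 2.5.3a, counted them per gene with HTSeq and used DESeq2; the annotation version and the strand setting are not given in the sources used here. The values are the raw counts per gene as the authors deposited them, in 1 table. Its zeros were read, from the values alone, as those of a table joined from separately filtered parts.

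All 20 libraries were fitted in edgeR 4.0.16 (R 4.3.3) as 6 groups with TMM factors and the quasi-likelihood test, without a replicate block (14 residual degrees of freedom). A gene was tested when 3 or more libraries of some group exceeded 0.5 CPM, and p-values were Benjamini-Hochberg adjusted over all 21912. CPM are counts scaled by the library total, 21342205 to 26847066 at E16. Positions, biotypes, overlaps and GC content came from GENCODE M21 of the same build, and promoters and the miRNA from RefSeq. Cochlear and SOC libraries with the same replicate number did not deviate together (r = 0.0717, -0.198 and -0.138). The scripts were tested on simulated data.

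The comparison and the 33 gene lists were chosen with earlier results of these data known. Genes named are the 8 of largest fold in each direction with at least 20 CPM in the higher organ, the first 4 of each list by level, and all measured hindbrain Hox, shared auditory and substrain genes; others are said to have been named after their values were seen, or are the remainder of a count of 5 or fewer. The alternatives were DESeq2 1.42.0, other scaling, filters and membership, a GC adjustment, glmTreat, the replicate block, joined zeros at 20 counts and leaving out each library. Small RNA libraries were not analysed here, and some genes that the rule names are not reported here.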

Additional observations from a re-analysis of the deposited data

Results flagged for a closer look

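For 10 of the 109 genes searched, 1 of the 4 SOC libraries of E16 lay far from the other 3, with a gap to the nearest library that, as a share of the group's range, passed Dixon's 95% critical value for 4 samples. Chance alone gives about 1 in 20. In replicate 4 the share of the range was 1 for Mir6236, 0.859 for 3110035E14Rik, 0.848 for Erbb3, 0.853 for Nefl and 0.872 for Lmx1a. In replicate 1 it was 0.871 for Meis1, 0.892 for Myh3 and 0.939 for Myh8, and in replicate 2 it was 0.915 for Sfrp1 and 0.846 for Xist. For Mir6236 the other 3 libraries are at 0 in a set that allows up to 20 counts each, a level above the 0.344 CPM of replicate 4, so its value does not show replicate 4 lying apart. The sarcomere myosins were highest in replicate 1.

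For 7 of the genes searched the difference lay more toward the cochlea at E16 than at P0 and for 40 more toward the SOC, so the organ difference was not the same at E16 as at P0 (interaction of organ and age, edgeR's quasi-likelihood test). Values are the log2 difference at E16 minus that at P0. Those toward the cochlea were neuronal and progenitor genes and 1 transporter gene, namely Neurod1 4.12, Fabp7 2.7, Slc5a7 2.64, Gria2 2.6, Slc17a6 2.06, Nefl 1.96 and Mfsd4a 1.33.

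Toward the SOC, the otic matrix genes gave -9.33 for Oc90, -6.94 for Tecta, -6.43 for Otog and -4.41 for Otogl, and the otic factors -2.98 for Eya1 and -2.16 for Eya4. Hair cell, prosensory and shared genes gave -3.72 for Ush1c, -1.54 for Jag1, -1.45 for Hmga2 and -1.5 for Atoh1. Epithelial genes gave -5.41 for Cldn6, -4.04 for Epcam and -2.65 for Cdh1. In the tissue around the epithelium the values were -9.13 for Otor, -3.49 for Postn, -2.79 for Col3a1, -6.09 for Dct, -2.94 for Gjb2, -1.47 for Slc12a2 and -1.5 for Erbb3. Receptors of the Notch, FGF and Wnt pathways gave -2.4 for Notch2, -1.6 for Notch1, -1.76 for Fgfr1, -1.55 for Fgfr2 and -2.12 for Fzd7. The ligand Wnt5a gave -1.6 and the inhibitor Sfrp1 -1.59. Muscle genes gave -7.65 for Myh3, -7.37 for Acta1, -7.12 for Myh8 and -4.61 for Ttn, cartilage and bone genes -9.19 for Col2a1, -7.75 for Col11a2, -5.48 for Col11a1, -7.37 for Ibsp and -3.84 for Col1a1, and blood and skin genes -2.6 for Hbb-bs, -5.38 for Krt15 and -2.23 for Perp. Rmrp gave -3.33. The SOC was cut from whole frozen heads at E16 and from isolated brains at P0, and the part of this in these differences was not tested.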

How the results depend on the processing

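The counts of cochlea-higher (2563) and SOC-higher members (1915) and of organ differences lying more toward the cochlea (647) or the SOC (1280) at E16 than at P0 stayed within 1.5 times under every alternative except glmTreat, which tests against the fold of 2.5 itself and gave 1432, 1189, 75 and 494. Without 1 library at a time they ranged from 2215 to 2526, 1877 to 2115, 513 to 778 and 1099 to 1442. The numbers of the libraries did not pair them, and the fit with the replicate block gave 2658, 1873, 771 and 1482. DESeq2 gave 2377, 1980, 705 and 1453, with 33 adjusted p-values not available. Of 1851 values for the 109 genes searched, 1824 kept direction and side of the threshold, 22 lost the call and 5 changed sign. The 7 genes that lost a call were Myh8 (DESeq2), Hoxb4 and Hoxc4 (joined zeros at 20 counts), Hoxa4 (replicate block, and without each cochlea replicate and each of SOC replicates 1 to 3 in turn), and Foxp1, Dlx1 and Fgfr1 in 5, 3 and 4 alternatives. Sign changes were seen for Hoxa4 (0.74 with joined zeros at 20 counts) and otherwise for uncalled genes. They were Mrc1 (0.06 with the replicate block, 0.08 without SOC replicate 4, and -0.3 at the lowest, without cochlea replicate 3), and Pdgfra (-0.07) and Kdr (-0.02) with the GC adjustment. Except for the zeros, which the setting itself replaces, the cause was not tested. With 3 and 4 pools and floors of up to 20 counts per library for genes at 0 throughout an organ, differences of genes below about 1 CPM were not detectable.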
